A study of Mus musculus with 6 samples.

Results

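Tumour necrosis factor (TNF) and its relatives were followed as 10 genes of mouse skin, 5 ligands (Tnf, Lta, Ltb, Tnfsf10 and Tnfsf11) and 5 receptors (Tnfrsf1a, Tnfrsf1b, Ltbr, Fas and Cd40). They were chosen by gene symbol, and all 10 were found among the 34590 symbols of each library. Of these, 9 passed the filter on low counts and Lta did not. RNA came from skin biopsies of 6 C57BL/6 mice, each given imiquimod on the skin for 2 days. Of these mice, 3 carried intact Tnip1 (Tnip1+/+, wild type) and 3 lacked it (Tnip1-/-, knockout), and the age of the animals was not given in the sources used here. Imiquimod activates Toll-like receptor 7 and inflames mouse skin in a way that resembles psoriasis. The Tnip1 protein binds ubiquitin chains and, with A20, limits NF-kB signalling downstream of TNF and Toll-like receptors.

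TNF family ligands are trimers, made at the cell surface or shed from it, that cluster receptors of the TNF receptor family. Receptors with a death domain, such as those encoded by Tnfrsf1a and Fas, can signal through adaptors to NF-kB or to caspase-8. Receptors without one, such as those encoded by Tnfrsf1b, Ltbr and Cd40, signal through TRAF proteins. In skin, TNF made by immune cells and keratinocytes is a driver of psoriatic inflammation and a target of its treatment. The comparison asked which of these ligand and receptor transcripts depend on Tnip1 under imiquimod.

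Libraries held 19529970 to 31005554 gene counts. Tnip1 was at 938, 739 and 703 counts for wild type replicates 1 to 3 against 47, 37 and 35 for the knockouts. In the edgeR quasi-likelihood fit (adjusted p under 0.05, Benjamini-Hochberg), 45.1% of 16691 tested genes were called, 22.3% higher and 22.7% lower in the knockout. Scaling by library totals alone moved the median log2 fold change of all genes by -0.15 and changed the split from 3730 higher and 3795 lower to 2490 and 4809. The biopsies held keratinocyte markers (summed level 6495 to 10844 CPM with Tnip1 and 19162 to 22079 CPM without it, where CPM is counts scaled to library size). They also held skeletal muscle markers (7399 to 13323 and 2135 to 3764 CPM) and adipocyte markers (524 to 937 and 3.30 to 309 CPM). Most of the rise in the keratinocyte sum was Krt14 (mean 1985 and 11551 CPM), and Krt10 was lower. A biopsy with fewer cells of a type and one with less RNA per cell cannot be told apart in such data. By Xist and Y-linked counts the wild type group held 1 male and 2 females and the knockout group 2 males and 1 female. The library codes contain the letters IMQ in every wild type library and NORM in every knockout library, although the titles and treatment labels give imiquimod for all 6. Genotype and code series therefore cannot be told apart.

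The family did not move as a block. Tnf, Ltb, Tnfrsf1a and Fas rose in knockout skin, Tnfsf10 fell, and Tnfsf11, Tnfrsf1b, Ltbr and Cd40 did not pass the test. The 5 called members are 55.6% of the 9 tested, against 45.1% of all tested genes, so the share is near the background. The median log2 fold change was 0.45 over the 9 members and -0.04 over all tested genes. Wild type and knockout values were fully apart for 7 of the 9, against 59.8% of all tested genes. Of these calls, those of Tnfrsf1a and Tnfsf10 held in each of 16 alternative fits, and those of Tnf, Ltb and Fas did not.

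**Figure D1:**
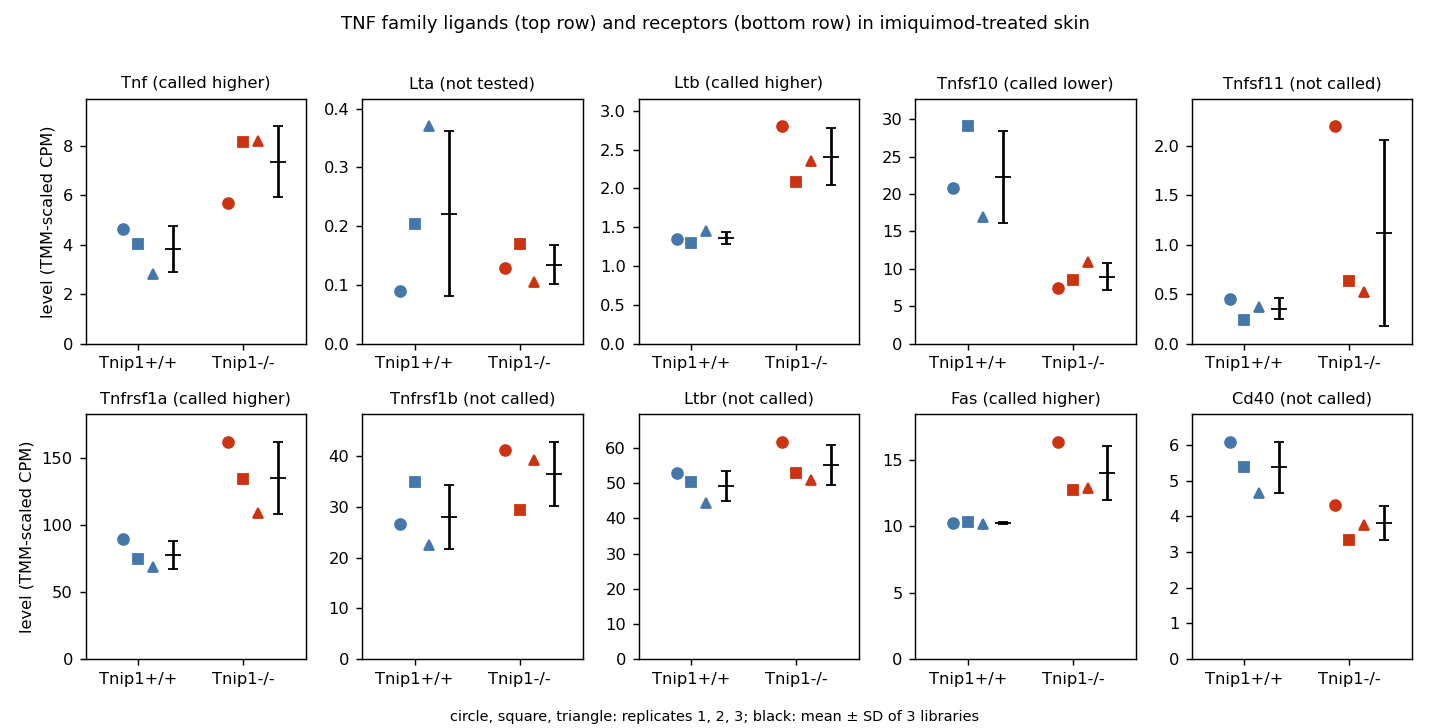
Level of each gene in TMM-scaled CPM (vertical axes, linear from 0) in the 3 Tnip1+/+ and 3 Tnip1-/- libraries, with ligands in the top row and receptors in the bottom row. Points are libraries and black bars are mean ± SD (n = 3). Tnf, Ltb, Tnfrsf1a and Fas lie higher in every knockout library than in any wild type library, and Tnfsf10 lies lower.

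Among the ligands, Tnf encodes TNF itself, the cytokine that drives inflammatory gene expression in keratinocytes, endothelium and myeloid cells. Its level was 4.62, 4.04 and 2.81 CPM across wild type replicates 1 to 3, against 5.69, 8.17 and 8.20 CPM across the knockouts. All 3 knockout values stood above all 3 wild type values, with the narrowest gap at knockout replicate 1. Tnf rose by 0.94 on the log2 scale (SE 0.25, 95% interval 0.34 to 1.53, adjusted p = 0.0220, edgeR). The call was lost without wild type replicate 3 (0.77, adjusted p = 0.0507) and without knockout replicate 2 or 3 (0.87 and 0.86, adjusted p = 0.0669 and 0.0671, edgeR). Neutrophil markers were higher in the same libraries, 5 of 5 tested. Their summed level was 11.4 to 18.9 CPM with Tnip1 and 93.3 to 164 CPM without it. The neutrophil marker Ngp, with 1, 3 and 1 wild type counts, passed the filter on low counts through the knockout libraries. Of 6 macrophage markers 3 were higher and 0 lower, with sums of 962 to 1353 and 1854 to 2216 CPM. Most of that rise was Lyz2 (mean 415 and 920 CPM) and Mrc1 (251 and 533 CPM). The means of Cd68 (51.6 and 37.9 CPM) and Cd163 (123 and 103 CPM) went the other way without a call. Of 8 T cell markers 1 was higher and 2 lower, with sums of 22.9 to 36.7 and 19.4 to 26.0 CPM. Among all tested genes 22.3% were called higher and 22.7% lower, so the T cell counts are near the background. No marker of these lists was at 0 in all libraries, and their part in the Tnf difference was not tested.

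Ltb encodes lymphotoxin beta, which anchors lymphotoxin alpha at the cell surface as the ligand of the lymphotoxin beta receptor. Its level was 1.35, 1.29 and 1.44 CPM across wild type replicates 1 to 3, against 2.80, 2.08 and 2.35 CPM across the knockouts. The wild type values lay close together and below every knockout value. Ltb rose by 0.82 (log2, SE 0.23, 95% interval 0.29 to 1.36, adjusted p = 0.0241, edgeR), from 122 to 159 counts over 3 libraries each. The call was lost without wild type replicate 1, 2 or 3 (0.83, 0.78 and 0.88), without knockout replicate 1 or 3 (0.71 and 0.85), and with library totals alone (0.66). Lta, which encodes lymphotoxin alpha, was close to the level of 3 counts, with 3, 6 and 10 counts for wild type replicates 1 to 3 against 3, 4 and 2 for the knockouts. Its ratio of summed scaled counts, wild type over knockout, was 1.55 (95% exact interval 0.669 to 3.89, counting error only), so no difference was detectable at this depth.

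Tnf, Lta and Ltb lie close together on chromosome 17, and Tnf and Ltb were both called higher. The 250 bases before the RefSeq start of Tnf and Ltb are shown, together with those of Tnfsf10, the only member called lower. Windows are given 5′ to 3′ on the gene's strand in build GRCm38.p6, a later build than the mm9 named for the counts (chr17:35202008-35202257, minus strand for Tnf; chr17:35194257-35194506, plus strand for Ltb; chr3:27316827-27317076, plus strand for Tnfsf10). Capitals mark the TATA box TATAAA in Tnf and a match to the NF-kB consensus in Ltb, and Tnfsf10 held none of the motifs searched.
Tnf: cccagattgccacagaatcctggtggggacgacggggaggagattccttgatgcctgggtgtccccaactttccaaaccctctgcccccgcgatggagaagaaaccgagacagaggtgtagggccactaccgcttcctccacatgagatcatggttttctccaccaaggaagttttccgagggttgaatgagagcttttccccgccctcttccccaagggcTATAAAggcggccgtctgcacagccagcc
Ltb: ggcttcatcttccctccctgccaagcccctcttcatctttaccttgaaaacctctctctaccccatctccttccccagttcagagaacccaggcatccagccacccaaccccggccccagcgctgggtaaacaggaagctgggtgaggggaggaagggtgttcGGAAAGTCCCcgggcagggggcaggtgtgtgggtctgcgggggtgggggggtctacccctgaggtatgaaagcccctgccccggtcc
Tnfsf10: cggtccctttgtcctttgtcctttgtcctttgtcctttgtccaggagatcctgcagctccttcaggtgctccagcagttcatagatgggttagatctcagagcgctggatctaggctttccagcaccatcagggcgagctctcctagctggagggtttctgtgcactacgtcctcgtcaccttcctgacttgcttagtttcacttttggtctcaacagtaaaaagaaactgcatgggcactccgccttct
Windows were found for 9 members, all but Cd40, and 4 motifs were searched on both strands. The NF-kB consensus was in 1 of the 9 windows (Ltb, 87 to 78 bases before the start, on the opposite strand) and in 7.25% of all 32851 windows of this length. TATAAA was in 3 (Tnf, Lta and Tnfsf11) and in 12.4% of all windows. The AP-1 motif TGANTCA, which reads the same on both strands, was in 1 (Fas, 211 to 205 bases before the start) and in 6.75% of all. The interferon-stimulated response element (GAAA, any 2 bases, GAAA) was in 1 (Tnfrsf1b, in the last 10 bases, on the opposite strand) and in 2.98% of all. A match is a description of letters, and a window without one says nothing of the factor.

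Tnfsf10 encodes TRAIL, a ligand of death receptors that is known to be induced by interferons. Its level was 20.8, 29.1 and 17.0 CPM across wild type replicates 1 to 3, against 7.50, 8.47 and 10.9 CPM across the knockouts. Every knockout value lay below every wild type value. Tnfsf10 fell by 1.32 on the log2 scale (SE 0.24, 95% interval -1.88 to -0.75, adjusted p = 0.00559, edgeR), so the wild type level was 2.49 times that of the knockout. It fell in all 16 alternative fits, by 1.08 to 1.47. The 18 interferon-inducible genes of a list chosen with earlier results of these data known fell too. All 18 were called lower with 0 higher and a median of -2.36, against 22.7% of tested genes called lower. Among them Ifit1 (-3.50), Ifit3 (-3.55), Ifi44 (-3.56) and Ifit2 (-2.40) had the smallest p. Markers of several cell types were lower in the same libraries. They were 4 of 6 for dendritic and Langerhans cells (summed level 45.5 to 58.5 CPM with Tnip1 and 17.8 to 22.2 CPM without it), 3 of 5 for endothelium (183 to 337 and 153 to 180 CPM) and 5 of 5 for skeletal muscle (7399 to 13323 and 2135 to 3764 CPM). Also lower were 2 of 5 for fibroblasts (4725 to 11332 and 3544 to 4417 CPM) and 1 of 3 tested for natural killer cells (8.73 to 11.7 and 4.34 to 5.55 CPM). The top of the fibroblast range is wild type replicate 1, with Col1a1 at 2354 and Col1a2 at 4839 CPM, and neither gene was called. Pdgfra, also not called, lay higher in each knockout library than in any wild type library. For T cells 2 of 8 were lower and 1 higher, and for adipocytes 1 of 4 was called lower. All 4 adipocyte markers lay below every wild type value in each knockout library (log2 -1.57 to -3.82). They were lowest in knockout replicate 2 (Adipoq 0.593 and Plin1 0.169 CPM). Keratinocyte markers went mostly the other way, with 4 of 6 higher, against 22.3% of all tested genes, and 1 lower. The shares called lower for T cells, adipocytes and keratinocytes are near the 22.7% of all tested genes called lower. None of these markers was at 0 in every library, and their part in the fall of Tnfsf10 and of the interferon list was not tested.

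The TRAIL receptor gene Tnfrsf10b was not called. It went from 2.53 ± 0.319 CPM with Tnip1 to 3.91 ± 0.633 CPM without it (SD, n = 3), a log2 difference of 0.63 that missed the threshold (95% interval 0.11 to 1.15, adjusted p = 0.0536, edgeR), and DESeq2's Wald test (0.65, adjusted p = 0.0449) and the stricter filter (0.61, adjusted p = 0.0497, edgeR) called it. Within libraries, the ratio of Tnfsf10 to Tnfrsf10b counts was 7.24, 11.9 and 7.51 in wild type and 1.64, 2.56 and 2.82 in knockout skin. These ratios are free of the library scaling, and they did not overlap between the groups. The decoy TRAIL receptor gene Tnfrsf23 rose by 1.21 (SE 0.21). It has close copies in the genome, so its counts are uncertain.

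The balance of Tnf to Tnfsf10 shifted between the genotypes. The ratio of their counts was 0.222, 0.139 and 0.166 in the wild type libraries and 0.759, 0.965 and 0.751 in the knockout libraries. Every knockout ratio was above every wild type ratio. Per kilobase of exon, Tnfsf10 was above Tnf in the wild type (4.23 ± 1.18 and 2.33 ± 0.563 CPM per kb) and below it in the knockout (1.7 ± 0.33 and 4.5 ± 0.88 CPM per kb). That order depends on the length taken for Tnfsf10, 5.27 kb as the union of its annotated exons, since Tnfsf10 had more counts than Tnf in all 6 libraries.

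Tnfsf11 encodes RANKL, the ligand that drives osteoclast formation and that keratinocytes also make. Its level was 0.450, 0.238 and 0.370 CPM across wild type replicates 1 to 3, against 2.20, 0.635 and 0.522 CPM across the knockouts. Knockout replicate 1 stood far above the other two knockout libraries, and the groups did not overlap. The log2 difference was 1.66 (SE 0.62, 95% interval 0.20 to 3.12, adjusted p = 0.0640, edgeR), and it was 0.71 without knockout replicate 1. DESeq2's Wald test (1.69, adjusted p = 0.0461) and the fit without knockout replicate 3 (1.99, adjusted p = 0.0459) passed the threshold. Its receptor gene Tnfrsf11a, which encodes RANK, fell by 0.46 (SE 0.16, adjusted p = 0.0477, edgeR). That call was lost without wild type replicate 1 or 2 (-0.38 and -0.42), without knockout replicate 2 or 3 (-0.39 and -0.38), and with DESeq2 (-0.44). The soluble decoy gene Tnfrsf11b, for osteoprotegerin, was at 11.7 ± 0.981 and 7.53 ± 3.07 CPM (log2 -0.63, adjusted p = 0.124, edgeR).

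Among the receptors, Tnfrsf1a encodes TNF receptor 1, the widely expressed death-domain receptor of TNF. Its level was 89.4, 74.3 and 68.7 CPM across wild type replicates 1 to 3, against 162, 134 and 109 CPM across the knockouts. The lowest knockout library stood above the highest wild type library. Tnfrsf1a rose by 0.80 on the log2 scale (SE 0.17, 95% interval 0.39 to 1.21, adjusted p = 0.0106, edgeR), or 1.74-fold. In the 16 alternative fits the rise was 0.64 to 0.94, each past the threshold. Keratinocyte markers summed to 6495 to 10844 CPM with Tnip1 and 19162 to 22079 CPM without it. Of the 6, 4 were higher and 1 lower, against 22.3% and 22.7% of all tested genes. Most of the rise of the sum was Krt14 (mean 1985 and 11551 CPM), and Krt5, Krt1 and Dsg3 were higher too. Krt10 was lower (3307 and 1717 CPM), and Col17a1 was not called (507 and 435 CPM). Their part in the Tnfrsf1a rise was not tested.

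Tnfrsf1b encodes TNF receptor 2, found mostly on immune and endothelial cells. It was at 26.8, 35.0 and 22.4 CPM across wild type replicates 1 to 3, against 41.2, 29.4 and 39.2 CPM across the knockouts. Wild type replicate 2 was above knockout replicate 2, so the groups overlapped. The log2 difference was 0.38 (95% interval -0.09 to 0.86, adjusted p = 0.159, edgeR), an interval that includes the size of the Tnfrsf1a rise. The ratio of Tnfrsf1a to Tnfrsf1b counts was 3.34, 2.12 and 3.06 with Tnip1 and 3.93, 4.56 and 2.77 without it, and it overlapped too.

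Ltbr encodes the lymphotoxin beta receptor, which binds lymphotoxin and the ligand LIGHT and signals through the alternative NF-kB pathway. It was at 52.8, 50.5 and 44.5 CPM across wild type replicates 1 to 3, against 61.8, 52.8 and 51.0 CPM across the knockouts. The values of the groups ran into each other. The log2 difference was 0.16 (95% interval -0.13 to 0.46, adjusted p = 0.309, edgeR), and with library totals alone it was 0.01. Within libraries the ratio of Tnfrsf1a to Ltbr counts was 1.69, 1.47 and 1.55 in wild type and 2.62, 2.54 and 2.13 in knockout skin. These ratios did not overlap, so these receptors of neighbouring chromosome 6 loci changed unequally whatever the scaling.

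**Figure D2:**
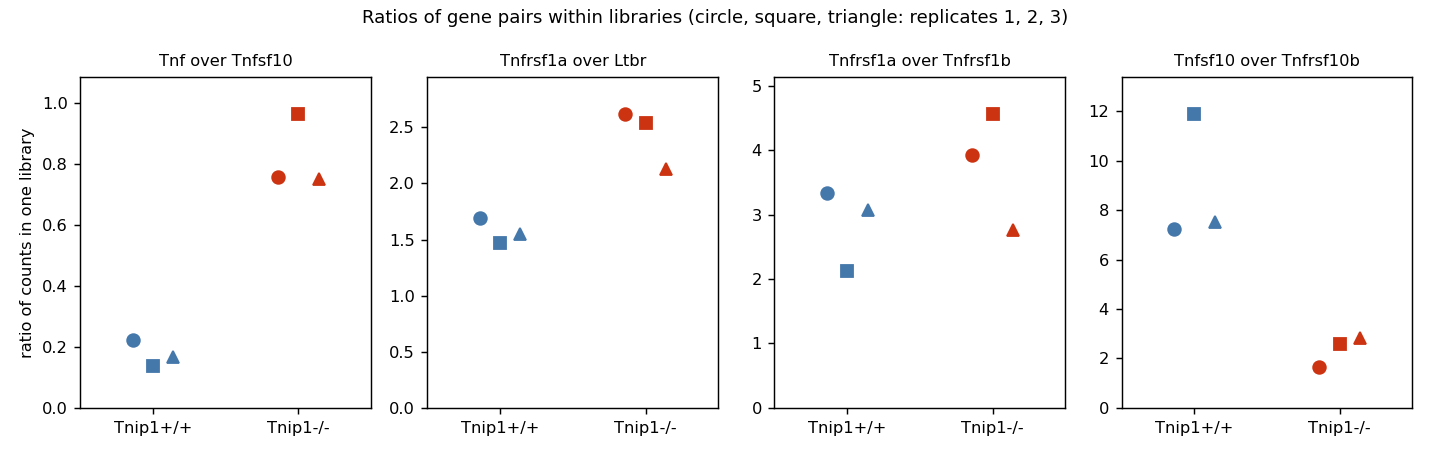
Ratio of the counts of gene pairs within each library (vertical axes, linear from 0), with 3 Tnip1+/+ and 3 Tnip1-/- libraries as points. Tnf over Tnfsf10 and Tnfrsf1a over Ltbr are higher in each knockout library, Tnfsf10 over Tnfrsf10b is lower, and Tnfrsf1a over Tnfrsf1b overlaps (2.12 to 3.34 against 2.77 to 4.56).

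Fas encodes the death receptor of Fas ligand. Its level was 10.3, 10.3 and 10.2 CPM across wild type replicates 1 to 3, against 16.4, 12.7 and 12.9 CPM across the knockouts. Wild type values were nearly equal and below all knockout values. Fas rose by 0.45 (log2, SE 0.15, 95% interval 0.11 to 0.79, adjusted p = 0.0411, edgeR), the smallest change among the called members. The call ended whichever library was left out, at 0.46, 0.45 and 0.46 without wild type replicates 1, 2 and 3 and at 0.33, 0.53 and 0.52 without knockout replicates 1, 2 and 3. It also ended with library totals alone (0.29), upper-quartile factors (0.36), no filter (0.45) and a sex covariate (0.42). Fasl, the gene of the ligand, missed the filter on low counts, with 9, 5 and 5 counts for wild type replicates 1 to 3 against 10, 9 and 5 for the knockouts (wild type over knockout 0.582, 95% exact interval 0.301 to 1.11).

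Cd40 encodes a co-stimulatory receptor of dendritic cells, B cells and macrophages. Its level was 6.09, 5.37 and 4.66 CPM across wild type replicates 1 to 3, against 4.31, 3.35 and 3.76 CPM across the knockouts. Each knockout value lay below each wild type value. The log2 difference was -0.50 (SE 0.20, 95% interval -0.96 to -0.03) and missed the threshold (adjusted p = 0.0763, edgeR), whereas with library totals alone (-0.66, adjusted p = 0.0331) and upper-quartile factors (-0.58, adjusted p = 0.0454) it passed. Dendritic and Langerhans cell markers were lower in the same libraries, 4 of 6 with 0 higher, against 22.7% of all tested genes called lower. Their summed levels were 45.5 to 58.5 CPM with Tnip1 and 17.8 to 22.2 CPM without it. Cd209a and Ccr7 were not called, and Cd209a varied widely (0.720, 6.73 and 12.6 against 5.04, 1.48 and 0.575 CPM). B cell markers summed to 1.20 to 2.14 and 1.59 to 3.56 CPM, with 1 of 5 high enough to test. None of these markers was at 0 in all libraries, and their part in the Cd40 values was not tested. The ligand gene Cd40lg missed the filter on low counts, with 3, 6 and 1 counts for wild type replicates 1 to 3 against 3, 5 and 0 for the knockouts.

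Compared per kilobase of exon, the mean levels of Tnfrsf1a, Ltbr, Tnfrsf1b and Fas stood above those of the ligands, while Cd40 stood among the ligands. In wild type skin the mean levels were 29.9 CPM per kb for Tnfrsf1a, 20.9 for Ltbr, 7.35 for Tnfrsf1b and 4.97 for Fas. Below them were 4.23 CPM per kb for Tnfsf10, 2.33 for Tnf, 1.58 for Cd40 and 0.898 for Ltb, with 0.160 for Lta and 0.158 for Tnfsf11. The SDs of Fas and Tnfsf10 (0.0365 and 1.18) overlapped, as did those of Lta and Tnfsf11 (0.102 and 0.0479). In knockout skin the receptors other than Cd40 kept this order, with 52.0 CPM per kb for Tnfrsf1a, 23.4 for Ltbr, 9.59 for Tnfrsf1b and 6.79 for Fas. Tnf followed at 4.49 CPM per kb, then Tnfsf10 (1.7), Ltb (1.59), Cd40 (1.12), Tnfsf11 (0.50) and Lta (0.0972). Tnfsf10 and Ltb did not differ there beyond their SDs (0.334 and 0.242). Exon lengths came from a later annotation than the one counted, which was not given.

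**Figure D3:**
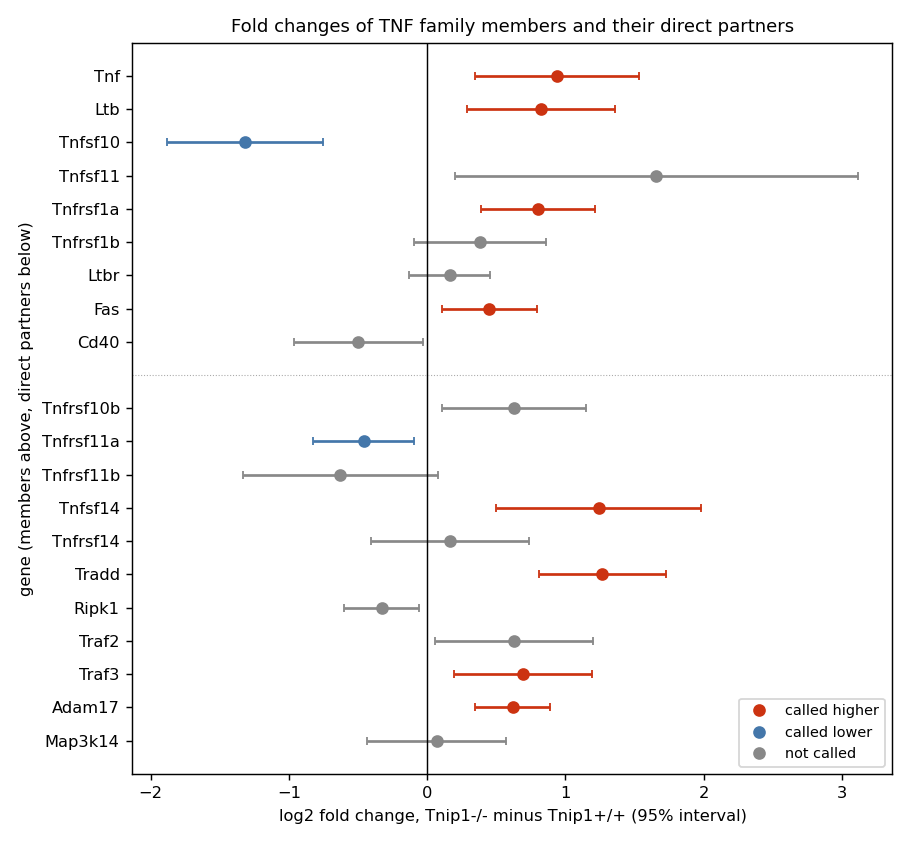
Log2 fold change, Tnip1-/- minus Tnip1+/+ (horizontal axis), with 95% intervals for the 9 tested members (above the dotted line) and 11 direct partners (below). Colours mark genes called higher, called lower or not called. Tnfsf10 alone of the members is called lower, and the interval of Tnfsf11 is the widest.

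Of 8 other ligands of the superfamily that were tested, 1 rose and 1 fell, with a median log2 fold change of -0.11, beside 22.3% higher and 22.7% lower among all tested genes. Tnfsf14, which encodes LIGHT, a ligand of the lymphotoxin beta receptor, rose from 1.15 ± 0.247 to 2.71 ± 0.869 CPM (log2 1.24, SE 0.32). That call was lost without wild type replicate 1 (1.10) and knockout replicate 1 (0.95). Tnfsf15, which encodes the T cell co-stimulator TL1A, fell from 9.24, 7.95 and 6.81 CPM to 1.25, 2.29 and 1.10 CPM (log2 -2.36, SE 0.31). Tnfsf18 (-1.09) and the ectodysplasin gene Eda (-0.23) did not pass. Tnfrsf14, the other receptor gene for LIGHT, was at 4.42 ± 1.30 and 4.96 ± 0.197 CPM (log2 0.16, 95% interval -0.41 to 0.73).

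Of 21 other receptors tested, 4 rose and 4 fell, with a median of 0.23. These 8 calls stand beside 45.1% of all tested genes called in either direction, so their share is not above the background. Those that rose were Tnfrsf8, which encodes the lymphocyte activation receptor CD30 (log2 3.17, from 23 to 158 counts over 3 libraries each), Tnfrsf12a, for the TWEAK receptor (1.65), Relt (1.26) and Tnfrsf23. Those that fell were Edar, for the ectodysplasin receptor of hair follicles (-3.26), Tnfrsf19 (-2.13), Ngfr, for the low-affinity neurotrophin receptor (-1.94), and Tnfrsf11a. Edar stood at 1.02, 1.16 and 5.92 CPM across wild type replicates 1 to 3, and its value was -1.95 without wild type replicate 3. Its call was lost without knockout replicate 1 or 2 (-3.0 and -3.3). With 4, 7 and 7 knockout counts, Edar passed the filter on low counts through the wild type libraries. Tnfrsf8, with 10, 9 and 4 wild type counts, passed it through the knockout libraries. Without knockout replicate 2 the number of receptors lower was 2.

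Of 18 adaptors and death effectors near the receptors, 3 rose and 2 fell, and the median was 0.03. The 5 calls are a smaller part of the list than the 45.1% called over all tested genes. Tradd, which encodes the adaptor that binds the death domain of TNF receptor 1, rose from 7.35 ± 1.01 to 17.7 ± 3.53 CPM (log2 1.27, SE 0.20). Traf3, for a brake on the alternative NF-kB pathway, rose by 0.69, and Birc3, for the ubiquitin ligase cIAP2, rose by 0.61. Sharpin, for a subunit of the linear ubiquitin ligase, fell by 0.56 and Birc2, for cIAP1, by 0.30. Ripk1, for the kinase that links the receptor to survival or death, stood at -0.33 (adjusted p = 0.0521, edgeR), Traf2 at 0.63 (adjusted p = 0.0710, edgeR) and Map3k14, for the kinase NIK, at 0.07.

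These adaptor calls rested on single libraries to different degrees. Tradd passed in each of the 6 fits that left out 1 library. Without wild type replicate 1, 6 rose, among them Traf2 (0.91), and 1 fell. Without wild type replicate 3, 1 rose and 1 fell. Without knockout replicate 1 or 2, 1 rose and 0 fell, and with wild type replicate 2 or knockout replicate 3 left out 1 fell. The call of Traf3 ended without wild type replicate 3 (0.74) and without knockout replicate 1, 2 or 3 (0.63, 0.73 and 0.76). Birc3 lost it without knockout replicate 1 or 2 (0.54 and 0.52) and wild type replicate 2 or 3 (0.56 and 0.59), and Sharpin without knockout replicate 1 or 2 (-0.48 and -0.54). Birc2 lost it whichever library was left out (-0.29, -0.28 and -0.32 without wild type replicates 1, 2 and 3, and -0.31, -0.31 and -0.26 without knockout replicates 1, 2 and 3). With library totals alone 1 rose and 5 fell, with DESeq2 5 rose and 2 fell.

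Of 13 genes that release TNF from the cell or control its mRNA, 3 rose and 1 fell (median -0.01), against 22.3% and 22.7% of all tested genes. Adam17, which encodes the protease that sheds TNF and its receptors, rose from 104 ± 11.9 to 160 ± 5.86 CPM (log2 0.62, SE 0.12). Timp3, which encodes an inhibitor of that protease, fell from 331 ± 44.4 to 111 ± 14.6 CPM (log2 -1.58, SE 0.15). Both calls held without each library in turn. Elavl1, for the mRNA-stabilising protein HuR, rose by 0.63, and Zc3h12a, for the mRNA-degrading enzyme Regnase-1, rose by 1.49. The call of Zc3h12a ended in the fits without knockout replicate 1 (1.19), wild type replicate 2 (1.29) and wild type replicate 3 (1.34).

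Genes known to be induced by TNF were called in the upward direction alone. Of 30, 18 rose and 0 fell, against 22.3% of tested genes called higher, and the median was 0.96. This list too was chosen with earlier results of these data known. The neutrophil chemokine gene Cxcl5 had 6 counts over the wild type and 300 over the knockout libraries (log2 5.94). Without wild type replicate 1 the value was 5.33, without wild type replicate 2 it was 7.67, and without knockout replicate 1 it was 5.35. Lcn2, for a siderophore-binding protein, rose by 3.40, Tnfaip2 by 1.93 and the survival gene Bcl2a1b by 2.19. Bcl2a1b has near-identical copies, so its counts are uncertain. Cxcl5 (0, 5 and 1 wild type counts) and Bcl2a1b (19, 11 and 9) passed the filter on low counts through the knockout libraries. So did Csf3 (5, 1 and 0), which is also among the 18. The number higher was 10 without wild type replicate 3 and 9 without knockout replicate 1. Neutrophil markers moved with this list as well (11.4 to 18.9 against 93.3 to 164 CPM), and their part in it was not tested.

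Among targets of the lymphotoxin beta receptor and genes of lymphoid tissue, 3 of 7 tested rose and 0 fell, with a median of 0.61, against 22.3% of all tested genes higher. With so few genes the count says little beyond the genes themselves. Relb and Nfkb2, which encode subunits of the alternative NF-kB pathway, rose by 0.61 and 0.68, and both are also counted in the TNF-inducible list. Madcam1, which encodes a vascular adhesion molecule, rose by 2.50 on 11 counts over the wild type and 48 over the knockout libraries. It rose by 3.34 without wild type replicate 2. With 2, 7 and 2 wild type counts, Madcam1 passed the filter on low counts through the knockout libraries. The chemokine gene Ccl21a stood at -0.34 and did not pass. The call of Relb ended in the fits without knockout replicate 1 (0.49), wild type replicate 2 (0.56) and wild type replicate 3 (0.57). That of Nfkb2 ended without the same libraries (0.48, 0.57 and 0.62) and without knockout replicate 2 (0.79). The list had 1 gene higher in each of the fits without knockout replicate 1, without wild type replicate 3 and with library totals alone.

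**Figure D4:**
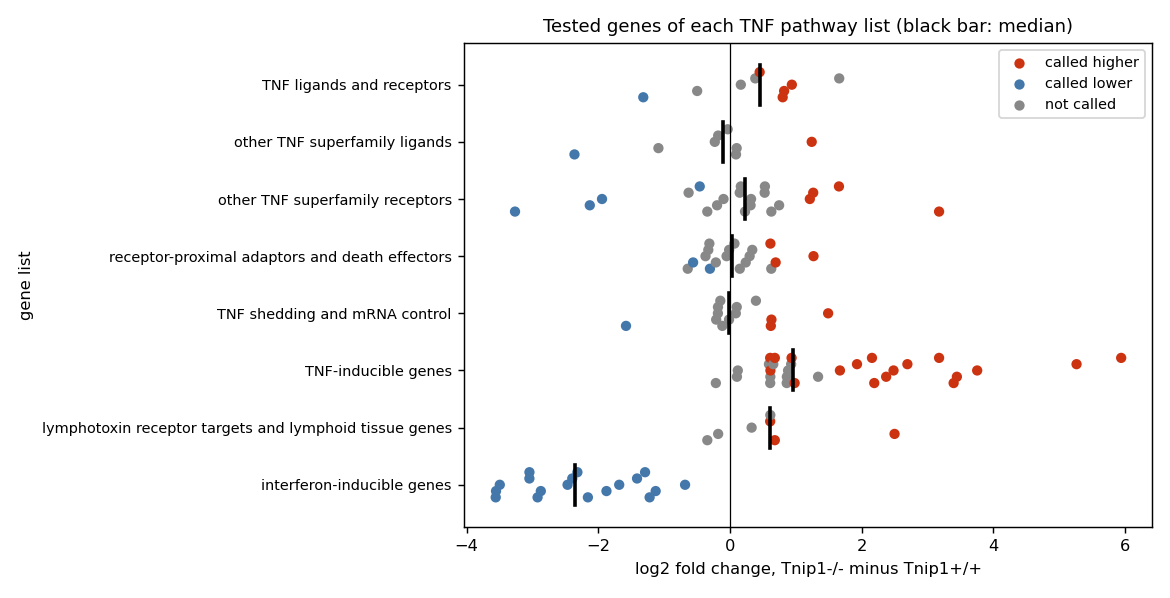
Log2 fold change, Tnip1-/- minus Tnip1+/+ (horizontal axis), of every tested gene of each list (rows), coloured by call, with black bars at the list medians. The TNF-inducible list has a median of 0.96 and no gene called lower, and all 18 interferon-inducible genes are called lower.

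**Figure D5:**
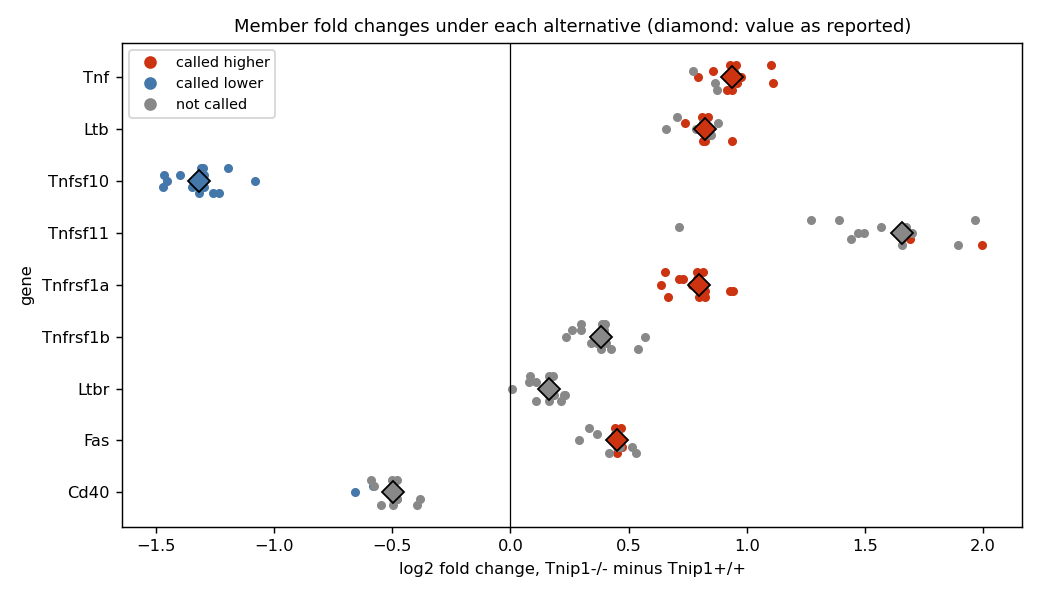
Log2 fold change, Tnip1-/- minus Tnip1+/+ (horizontal axis), of each tested member as reported (diamonds) and under the alternative fits (dots), coloured by whether the fit called it. No member changes sign. Tnfrsf1a and Tnfsf10 are called in each fit, Fas in 5 of the 16 alternatives, and Tnfsf11 spreads from 0.71 to 1.99.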

How the data were processed

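RNA was measured in skin of 6 mice, 3 per genotype, each a separate animal per the design text. TRIzol RNA was freed of ribosomal RNA and sequenced in pairs from stranded libraries, per the labels' protocols. The deposited values are counts per gene symbol, 1 file per library; build mm9 and the tools HTSeq, STAR, BWA, limma, CASAVA 1.7 and R 3.2.3 are named in the submitters' processing notes. Settings, annotation and strand option: not given in the sources used here. In GENCODE M21 no member shares exons with another gene. The 5 summary lines, 26.7% to 30.3% of each file, were left out.

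Tests used edgeR 4.0.16 under R 4.3.3 (TMM scaling, default filterByExpr filter, quasi-likelihood test, Benjamini-Hochberg adjustment over 16691 genes, called at adjusted p under 0.05), with fold changes on the log2 scale as knockout minus wild type. Levels in TMM-scaled CPM are printed per library or as mean ± SD (n = 3), and 3 counts stand at 0.0900 to 0.157 CPM. SEs and 95% intervals were derived from the F statistic. No replicate pair of a group was within sampling noise (chi-square over degrees of freedom 30.8 to 124). Simulated counts for this comparison (16519 genes) held 100 genes changed by 1 and 100 changed by 2 on the log2 scale. The procedure recovered 46% of the former and 94% of the latter, with 13 false among 153 calls. The real libraries gave 7525 calls. With few changed genes the Benjamini-Hochberg adjustment is stricter, so these percentages do not measure recovery in the real libraries.

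Named genes are Tnip1, the 10 members, their direct partners and up to 4 genes of each list with the smallest p. Tnfrsf12a, Tnfrsf19, Edar and Birc2 were added after their values were seen. The members and lists were chosen with earlier results of these data known. Relb, Nfkb2, Birc3, Traf1 and Tnfsf13b are in more than 1 list. Promoter sequences are from RefSeq (GRCm38.p6) and exon lengths from GENCODE M21. Tnfsf12 was not analysed here. Alternatives were DESeq2 1.42.0, library totals, upper-quartile factors, limma voom (limma 3.58.1), robust dispersion, other filters, a replicate block, leaving out muscle, fat, haemoglobin, mitochondrial and histone genes, leaving out each library, and a sex covariate, which was chosen after seeing the data.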

Additional observations from a re-analysis of the deposited data

How the results depend on the processing

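Of the 10 kinds of setting other than leaving out a library, and 6 fits without 1 library each, none turned the sign of a tested member. With library totals alone 2 members were called higher and 2 lower, and with upper-quartile factors 2 were lower. With the replicate number as a block 1 member (Tnfrsf1a) was called higher, as Tnf (0.95), Ltb (0.81), Fas (0.44) and Tnfsf14 (1.21) lost their calls, and 1 (Tnfsf10) was lower. Deviations of same-numbered libraries correlated at 0.0115, -0.209 and 0.193, and those of differently numbered libraries at -0.293 to 0.263. With 3 libraries per group these values cannot show whether the numbers pair animals. Without 1 library, 1 to 2 members were called higher and 1 lower. Over the alternatives the adjusted p of Tnf ranged from 0.00317 to 0.0671, of Ltb from 0.0210 to 0.0801 and of Fas from 0.0287 to 0.136 (edgeR, limma or DESeq2). Map3k14 turned sign with library totals alone (-0.093), upper-quartile factors (-0.016) and the sex covariate (-0.014), and ranged from -0.085 to 0.25 without 1 library. The cause of these changes was not tested. Tnfsf11 could not be fitted under the stricter filter. Tnfrsf11a also lost its call with no filter (-0.46) and without muscle, fat, haemoglobin, mitochondrial and histone genes (-0.44). Lta could be fitted without a filter (log2 -0.66, adjusted p = 0.512, edgeR). Depth limits Lta, Fasl and Cd40lg, each at 10 counts or fewer per library.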
